A study of Mus musculus with 11 samples.

Results

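The genes described encode enzymes of prostaglandin, thromboxane and leukotriene synthesis and 1 activating protein of 5-lipoxygenase. There are 10, chosen by symbol: Ptgs1, Ptgs2, Ptges, Ptges2, Hpgds, Tbxas1, Alox5, Alox5ap, Ltc4s and Lta4h. All 10 were found in both deposited tables, of 35118 genes in the table of the genotype comparison and 35597 in that of the site comparison. RNA was sequenced from macrophages sorted from C57BL/6 mice 14 days after subcutaneous transplantation of Lewis lung carcinoma (LLC) cells, a transplantable mouse lung tumor line, at 6 to 8 weeks of age. Every mouse carried 2 loxP-flanked (floxed) alleles of Sin1, the gene Mapkap1, whose product is a subunit of mTOR complex 2. The WT_TAM group holds 4 libraries of tumor-associated macrophages from Sin1fl/fl mice without Cre, and the KO_TAM group holds 4 from LysMCre;Sin1fl/fl mice, in which Cre is made from the lysozyme M locus of myeloid cells and not of macrophages alone. The WT_SP group holds 3 libraries of splenic macrophages from tumor-bearing Sin1fl/fl mice without Cre. The tumor gate was CD45+ Ly6G- Ly6C- CD11b+ F4/80+, and the splenic gate was CD45+ TCRβ- Ly6G- Ly6C- F4/80+ with low CD11b.

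Prostaglandins and leukotrienes are short-lived lipid signals made from arachidonic acid. The cyclooxygenases convert arachidonic acid to prostaglandin H, which terminal synthases turn into prostaglandin E, prostaglandin D or thromboxane A. In the other branch, 5-lipoxygenase and its activating protein make leukotriene A, which is turned into leukotriene B by a hydrolase or into leukotriene C by a synthase. Macrophages make both kinds of lipid, and prostaglandin E from tumor-associated macrophages is widely studied for its effects on T cells.

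Recovered reads ranged from 7635600 to 13116713 per library, and levels are given as CPM, reads scaled to a common library total, after the size factors held in each table. Whether the libraries came from separate mice is not stated in the labels. A p-value thus sets a difference only against the variation among these libraries, and part of that variation may be technical. In bulk RNA, fewer cells of a type and less RNA per cell cannot be told apart. Mapkap1 ranged from 30.7 to 71.1 CPM in WT_TAM and from 43.3 to 54.1 CPM in KO_TAM, so the groups overlapped. These values are for the whole gene and do not separate a deleted exon, so they do not check the genotype labels. The 10 macrophage markers summed to between 9694 and 19111 CPM in WT_TAM and between 7298 and 8932 CPM in KO_TAM in the genotype table. In the site table they summed to between 10980 and 20216 CPM in WT_TAM and between 3107 and 3826 CPM in WT_SP. The 5 B-cell markers summed to between 12232 and 13636 CPM in WT_SP and between 25.2 and 176 CPM in WT_TAM, although the splenic gate is for macrophages. The 6 fibroblast markers were all detected. Some may have passed the filter on low reads only through WT_TAM, where their sum is higher, so no call is given for them. They summed to between 439.9 and 985 CPM in WT_TAM and between 8.88 and 48.1 CPM in WT_SP, and in the genotype table to between 388 and 853 CPM in WT_TAM and between 30.6 and 236 CPM in KO_TAM. In the site table the 10 neutrophil markers summed to between 1034 and 2930 CPM in WT_SP and between 75.7 and 158 CPM in WT_TAM. The 5 T-cell markers summed to 931 to 993 CPM in WT_SP and 62.1 to 93.5 CPM in WT_TAM, and the 6 dendritic-cell markers to 460 to 489 and 41.5 to 144 CPM. The 6 splenic red pulp macrophage markers summed to 2432 to 2815 CPM in WT_SP and 130 to 185 CPM in WT_TAM, though 1 was called higher in WT_TAM. The part of cell content in the differences below was not tested.

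The first comparison asked how tumor-associated and splenic macrophages of mice with floxed Sin1 and no Cre differ. At a limma adjusted p under 0.05, Ptgs2, Ptges, Tbxas1, Alox5 and Alox5ap rose in WT_TAM and Hpgds fell, while 23.1% of all 14239 genes tested were called higher and 23.6% lower. These 5 higher and 1 lower are of the 9 members that reached the filter's minimum level in libraries of both groups. Among the 12916 genes of the whole table that did so, 21.1% were called higher and 21.0% lower. Ltc4s reached it only in WT_TAM libraries, where it is higher, so its values are given as a description and it is not counted. The median log2 fold change was 1.92 over all 10 members, with Ltc4s included, and -0.07 over all genes tested. Both medians include genes that reached the minimum in only 1 group, so they are given as a description. All 10 members passed the filter on low reads.

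Ptgs2 encodes cyclooxygenase 2, the inducible cyclooxygenase (GRCm38 chr1:150100031-150108227, plus strand). In WT_TAM replicates 1 to 4 it stood at 299.8, 434, 298 and 50.004 CPM, and in WT_SP replicates 1 to 3 at 2.82, 7.49 and 4.47 CPM. Every WT_TAM library was above every WT_SP library, and WT_TAM replicate 4 was far below the other WT_TAM libraries. On the log2 scale Ptgs2 rose by 5.37 ± 0.69 (SE; limma adjusted p = 0.000298). Ptgs1 encodes cyclooxygenase 1, the form present in most tissues (GRCm38 chr2:36230426-36252272, plus strand). Its level was 109, 80.5, 77.2 and 86.7 CPM in WT_TAM and 86.6, 103 and 81.9 CPM in WT_SP. The groups overlapped. Their log2 fold change was -0.04 ± 0.19 (SE), with a 95% interval from -0.46 to 0.38 (limma adjusted p = 0.872).

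The promoters of Ptgs2 and Ptges, which were higher in tumor-associated macrophages, are shown beside that of Ptgs1, for which no difference was called. They are the 250 bases before the RefSeq start of each gene, 5′ to 3′ on the gene's strand, in build GRCm38.p6: chr1:150099781-150100030 (plus strand) for Ptgs2, chr2:30903298-30903547 (minus strand) for Ptges and chr2:36230176-36230425 (plus strand) for Ptgs1. The Ptges stretch lies inside the gene span given for Ptges below, because RefSeq and the annotation of the spans start Ptges at different bases. Capitals mark a GC box, GGGCGG, and a palindrome bound by C/EBP factors, TTGCGCAA.
Ptgs2: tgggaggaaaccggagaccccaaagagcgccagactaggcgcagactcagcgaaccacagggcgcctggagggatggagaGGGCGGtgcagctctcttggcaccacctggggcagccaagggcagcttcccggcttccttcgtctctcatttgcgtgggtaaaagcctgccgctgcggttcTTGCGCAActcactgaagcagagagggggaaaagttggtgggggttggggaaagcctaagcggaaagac
Ptges: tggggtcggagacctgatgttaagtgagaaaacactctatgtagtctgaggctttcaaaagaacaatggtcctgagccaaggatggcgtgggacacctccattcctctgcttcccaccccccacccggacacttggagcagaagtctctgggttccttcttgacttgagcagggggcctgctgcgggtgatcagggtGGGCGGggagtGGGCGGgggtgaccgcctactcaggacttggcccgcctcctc
Ptgs1: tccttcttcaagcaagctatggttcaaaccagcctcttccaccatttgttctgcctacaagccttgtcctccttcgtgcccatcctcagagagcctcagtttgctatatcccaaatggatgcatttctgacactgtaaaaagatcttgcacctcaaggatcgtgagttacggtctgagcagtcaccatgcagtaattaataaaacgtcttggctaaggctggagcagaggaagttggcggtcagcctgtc
The motifs searched on both strands were the TATA box (TATAAA), the GC box (GGGCGG), the E-box (CACGTG), the core of the cyclic AMP response element (CGTCA), the C/EBP palindrome (TTGCGCAA) and the CCAAT box (spelled as its name), in windows of 300 bases that reach 50 bases past the start. The Ptgs2 window held TTGCGCAA with its first base 69 bases before the start, and 0.183% of the 32851 RefSeq promoters hold it. It also held a GC box 170 bases before the start, and the core of the cyclic AMP response element and the E-box, which overlap each other, from bases 14 and 17 after the start. The Ptges window held GC boxes at 53 and 42 bases before the start, and 35.7% of promoters hold one. The E-box is in 7.15% and the cyclic AMP response element core in 20.8% of promoters. None of the 6 motifs was found in the Ptgs1 window, which says only that these letters are not in it. The other windows did not follow the calls. Ptges2 held an E-box and Lta4h 2 CCAAT boxes, though no difference was called for either. Tbxas1 held 2 matches to the TATA box and no GC box, and Alox5 held 1 GC box. Neither Hpgds, which was called lower, nor Ltc4s held any of the 6. A match is a description of the sequence, not a binding site. Promoters of 9 of the 10 members were in the RefSeq table, without Alox5ap.

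The terminal synthases differed among themselves. Ptges encodes microsomal prostaglandin E synthase 1, the inducible synthase that works with cyclooxygenase 2 (GRCm38 chr2:30889471-30929863, minus strand). Its level was 52.9, 63.7, 26.2 and 49.2 CPM in WT_TAM and 3.52, 2.32 and 0.220 CPM in WT_SP, where replicate 3 held 3 reads. All WT_TAM libraries were above all WT_SP libraries. Ptges thus rose by 4.52 ± 0.57 (SE) on the log2 scale (limma adjusted p = 0.000275). Without WT_SP replicate 3 it was 3.78. Ptges2 encodes microsomal prostaglandin E synthase 2 (GRCm38 chr2:32395896-32405772, plus strand), and it ranged from 28.9 to 38.2 CPM in WT_TAM and from 24.6 to 28.2 CPM in WT_SP. These ranges do not overlap, yet the log2 fold change of 0.30 ± 0.18 (SE) missed the threshold (limma adjusted p = 0.195). With library totals alone, without size factors, the Ptges2 value was -0.16. Groups that did not overlap, with WT_TAM higher, were found in 7 of the 10 members, Ltc4s included, and in 26.3% of all genes tested.

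Tbxas1 encodes thromboxane A synthase (GRCm38 chr6:38875404-39084585, plus strand). Its level was 346, 283, 243 and 239 CPM in WT_TAM and 45.7, 49.9 and 42.4 CPM in WT_SP. The groups were far apart, with little spread within each. On the log2 scale Tbxas1 rose by 2.57 ± 0.19 (SE; limma adjusted p = 9.78e-06). Tbxas1 overlaps Hipk2 on the opposite strand, and no source used here gives the strand setting of the counting, so reads of the overlap cannot be told apart. Platelets, which also make thromboxane, have the markers Pf4 and Itga2b. Of the 8 platelet and megakaryocyte markers, 7 had lower values and 1, Pf4, had higher values in WT_TAM. Only 3 of the 8 passed the filter on low reads in the genotype comparison, which shares the WT_TAM libraries. Some may thus have been tested here only through WT_SP, so no call is given for them. Itga2b was at 1.97 to 6.42 CPM in WT_TAM and 19.4 to 37.2 CPM in WT_SP, and the sum of the 8, between 299.9 and 1045 CPM in WT_TAM and between 61.7 and 107 CPM in WT_SP, was mostly Pf4. Their part in the Tbxas1 difference was not tested.

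Hpgds encodes hematopoietic prostaglandin D synthase (GRCm38 chr6:65117293-65144908, minus strand), and it was the 1 member that was lower in tumor-associated macrophages. Its level was 27.1, 21.2, 29.8 and 22.5 CPM in WT_TAM and 35.1, 42.8 and 37.8 CPM in WT_SP. The groups did not overlap, as for 29.8% of all genes tested with WT_TAM lower. Its log2 fold change was -0.62 ± 0.19 (SE; limma adjusted p = 0.0265). This call was lost without WT_TAM replicate 2 (limma adjusted p 0.0662), without WT_SP replicate 1 (0.0569), replicate 2 (0.119) or replicate 3 (0.0867), and without the filter on low reads (0.117).

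The leukotriene branch was higher at its first step. Alox5 encodes 5-lipoxygenase (GRCm38 chr6:116410077-116461178, minus strand). Its level was 196, 163, 96.9 and 58.4 CPM in WT_TAM and 12.5, 7.80 and 11.95 CPM in WT_SP. All WT_TAM libraries were above all WT_SP libraries. Alox5 rose by 3.40 ± 0.41 (SE) on the log2 scale (limma adjusted p = 0.000196). Alox5ap encodes the 5-lipoxygenase activating protein, which presents arachidonic acid to the enzyme (GRCm38 chr5:149264767-149288153, plus strand). Its level was 142, 103, 92.8 and 144 CPM in WT_TAM and 9.44, 12.97 and 10.998 CPM in WT_SP. The groups were again far apart. With 3.36 ± 0.22 (SE; limma adjusted p = 6.29e-06), its log2 fold change was close to that of Alox5 and had the smaller error.

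The enzymes that use leukotriene A differed from each other in level. Lta4h encodes leukotriene A4 hydrolase, which makes leukotriene B4 (GRCm38 chr10:93453411-93484875, plus strand). Its level was 152, 132, 123 and 90.5 CPM in WT_TAM and 102, 107 and 108 CPM in WT_SP. WT_TAM replicate 4 was below all 3 WT_SP libraries and the other WT_TAM libraries were above them. Over all 7 libraries the log2 fold change was 0.21 ± 0.20 (SE; limma adjusted p = 0.426). Leaving out WT_TAM replicate 4 made it 0.35 (limma adjusted p = 0.0092), and scaling by library totals alone made it -0.26. Ltc4s encodes leukotriene C4 synthase (GRCm38 chr11:50236461-50238616, minus strand), and it rested on few reads. They numbered 16, 14, 8 and 16 in WT_TAM and 3, 6 and 3 in WT_SP, or 1.35, 1.37, 0.699 and 2.62 CPM against 0.211, 0.463 and 0.220 CPM. The fitted log2 fold change was 1.26 ± 0.35 (SE; limma adjusted p = 0.0165), or 0.59 with a pseudocount of 2 CPM and 2.09 with limma voom, and the filter fixed its direction in part. Without WT_SP replicate 1 the limma adjusted p was 0.0645 and without WT_SP replicate 3 it was 0.0674, while without WT_TAM replicate 1, 2 or 4 Ltc4s did not pass the filter. An antisense gene, Gm26542, overlaps Ltc4s.

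**Figure D1:**
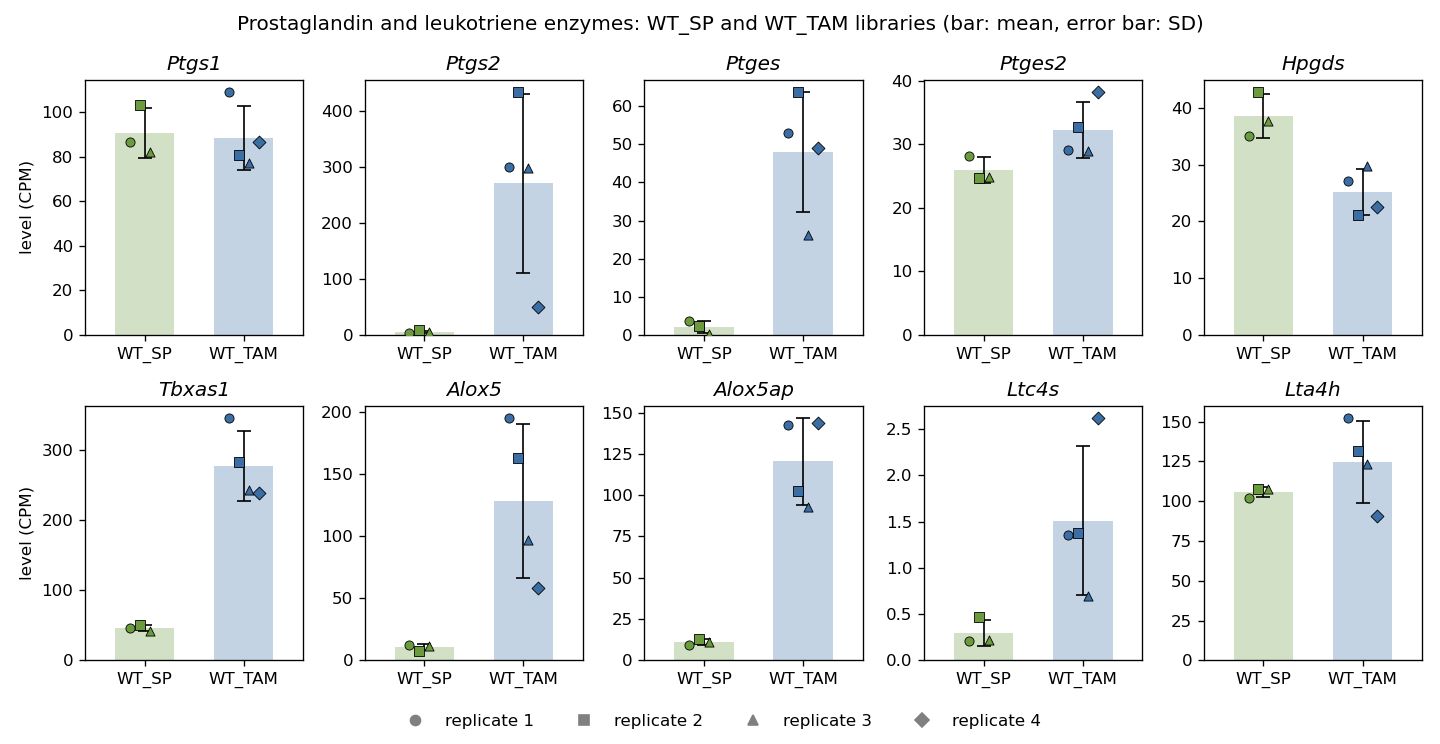
Levels (CPM, linear axes from 0) of the 10 enzyme genes in the 3 WT_SP and 4 WT_TAM libraries; bars are means, error bars are SD and points are libraries, with a symbol per replicate number. Ptgs2, Ptges, Tbxas1, Alox5 and Alox5ap are above all WT_SP libraries in all WT_TAM libraries, and WT_TAM replicate 4 has the lowest Ptgs2, 50.004 CPM.

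Tumor and splenic macrophages also differed in which enzyme had the higher level per length. On the scale of CPM per kilobase of transcript, Ptgs2 was above Ptgs1 in 3 of 4 WT_TAM libraries and in 0 of 3 WT_SP libraries. The ratio of Ptgs2 to Ptgs1 per length ranged from 0.399 (WT_TAM replicate 4) to 3.73 in WT_TAM and from 0.0225 to 0.0501 in WT_SP. Tbxas1 had the highest mean level per length of the 10 in WT_TAM, 219 ± 39.3 CPM per kb (SD, n = 4), and Alox5ap came next with 140.5 ± 31.0. In WT_SP the order began with Lta4h, 51.6 ± 1.62 CPM per kb (SD, n = 3), followed by Tbxas1, 36.2 ± 2.98. Ptgs1 and Hpgds, the next in WT_SP, had levels per length of 31.5 ± 3.93 and 31.3 ± 3.19 CPM per kb, which differ by less than their spread. Ltc4s was the lowest in both groups, at 2.80 ± 1.49 CPM per kb in WT_TAM and 0.553 ± 0.265 in WT_SP. Ptges was also low in WT_SP, at 0.575 ± 0.476 CPM per kb, within the spread of Ltc4s.

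**Figure D2:**
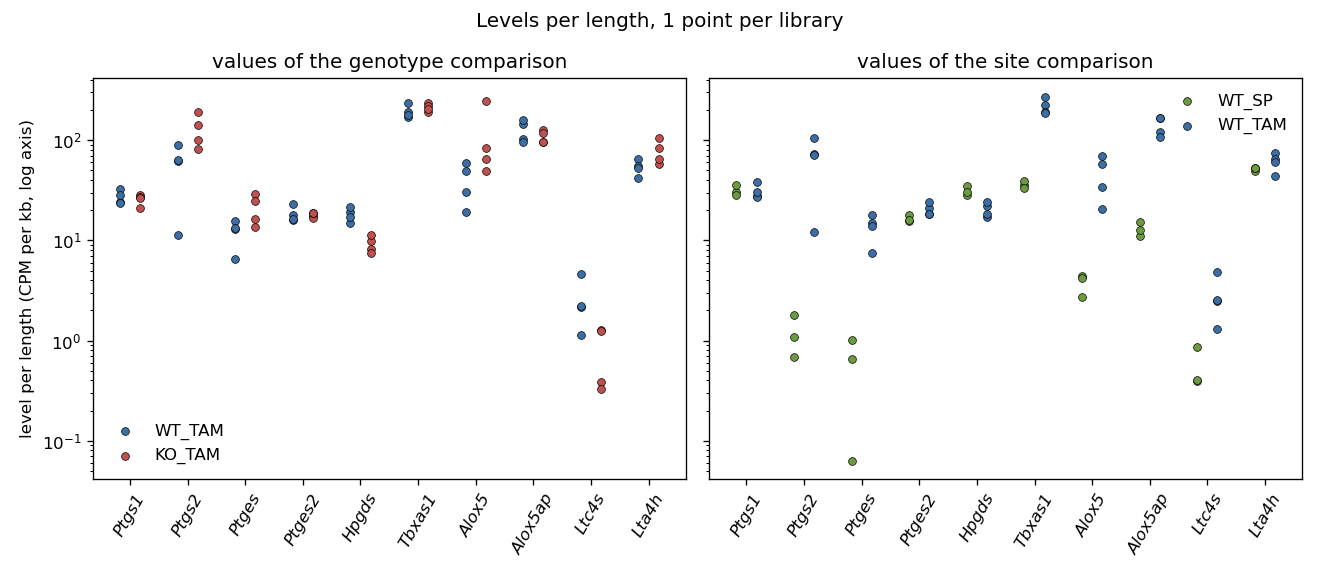
Level per length (CPM per kb, log axis) of the 10 enzyme genes, 1 point per library, in the genotype comparison on the left and the site comparison on the right. Tbxas1 and Alox5ap lead in WT_TAM, Ltc4s is lowest in each group on average, and Ptgs2 lies above Ptgs1 in WT_TAM except in replicate 4.

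The second comparison asked which genes differ in tumor-associated macrophages when Sin1 is deleted with LysMCre. It shares the 4 WT_TAM libraries with the first. In the genotype table, 9 of the 10 members were tested, and Ltc4s did not pass the filter on low reads. None of the 9 passed a limma adjusted p of 0.05, and of the 12875 genes tested 0% did, with the lowest adjusted p at 0.102. At an unadjusted p under 0.05, 4 members had higher values in KO_TAM (Ptgs2, Ptges, Alox5 and Lta4h) and 1 had lower values (Hpgds), against 8.67% of all genes higher and 9.72% lower. Over all genes, 2368 were under that unadjusted p with limma's trend and 2228 with limma voom. The median log2 fold change was 0.15 over the 9 members and 0.01 over all genes tested. The median size of the log2 fold change, without its sign, was 0.52 over the members and 0.33 over all genes.

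Hpgds was the only one of the 9 tested members whose groups did not overlap. It was at 23.5, 18.3, 26.3 and 21.2 CPM in WT_TAM replicates 1 to 4 and at 10.1, 9.20, 12.3 and 14.1 CPM in KO_TAM replicates 1 to 4. Every KO_TAM library was below every WT_TAM library, as for 8.74% of all genes tested. The log2 fold change was -0.94 ± 0.21 (SE), with a 95% interval from -1.42 to -0.47, an unadjusted limma p of 0.00117 and an adjusted one of 0.113. With 1 library left out at a time it ranged from -1.05 to -0.85, and with 1 weight per library or all 11 libraries in 1 fit its limma adjusted p was 0.0223 or 0.0462. Mast cells make prostaglandin D through the same synthase. All 7 mast-cell markers were detected, and they summed to between 19.9 and 60.8 CPM in WT_TAM and to 57.1, 5.99, 4.43 and 7.85 CPM in KO_TAM replicates 1 to 4. Mcpt4 was at 0 in 3 of 4 KO_TAM libraries, and Tpsb2 in 2. Some of the 5 mast-cell markers tested may have passed the filter on low reads only through WT_TAM libraries, so no call is given for them. The macrophage sum was lower in every KO_TAM library than in every WT_TAM library, through C1qa, C1qb and C1qc. Of its 10 genes these 3 had lower and 2, Adgre1 and Itgam, had higher values at an unadjusted limma p under 0.05, with a median log2 fold change of -0.04. The part of mast-cell, macrophage and fibroblast RNA in the Hpgds difference was not tested.

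Ptgs2 was at 260.2, 376, 263 and 47.3 CPM in WT_TAM and at 792, 587, 417 and 338 CPM in KO_TAM. The groups overlapped through WT_TAM replicate 2 and KO_TAM replicate 4, and WT_TAM replicate 4 was far below the rest. For all 8 libraries the log2 fold change was 1.43 ± 0.57 (SE), with a 95% interval from 0.17 to 2.69 (limma adjusted p = 0.236). Without WT_TAM replicate 4 the log2 fold change was 0.78. Ptgs1 was between 68.2 and 94.6 CPM in WT_TAM and between 59.98 and 81.4 CPM in KO_TAM, and its log2 fold change was -0.08 ± 0.18 (SE), with a 95% interval from -0.49 to 0.32. Per length, Ptgs2 was above Ptgs1 in 4 of 4 KO_TAM libraries, by 3.04 to 6.73 times.

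Ptges was at 46.0, 55.2, 23.2 and 46.5 CPM in WT_TAM and at 102, 86.7, 47.4 and 57.6 CPM in KO_TAM. KO_TAM replicate 3 lay within the WT_TAM range, and the other 3 lay above it. The fitted log2 fold change was 0.78 ± 0.32 (SE; limma adjusted p = 0.248), or 0.51 when WT_TAM replicate 3 was left out. Among the other synthases of the set, Ptges2 and Tbxas1 had close means in both groups. Ptges2 had means of 28.8 ± 5.07 CPM in WT_TAM and 28.2 ± 1.67 CPM in KO_TAM (SD, n = 4 each), with a 95% interval of the log2 fold change from -0.42 to 0.38. Tbxas1 had means of 247 ± 38.2 and 272 ± 25.7 CPM, with an interval from -0.24 to 0.53. Per length, Ptges was above Hpgds in 1 of 4 WT_TAM libraries and in 4 of 4 KO_TAM libraries. The ratio of Ptges to Hpgds ranged from 0.309 to 1.06 in WT_TAM and from 1.35 to 3.52 in KO_TAM, so the libraries of the genotypes did not overlap in it. This ratio was chosen after its parts had been seen, so it is given without a test.

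**Figure D3:**
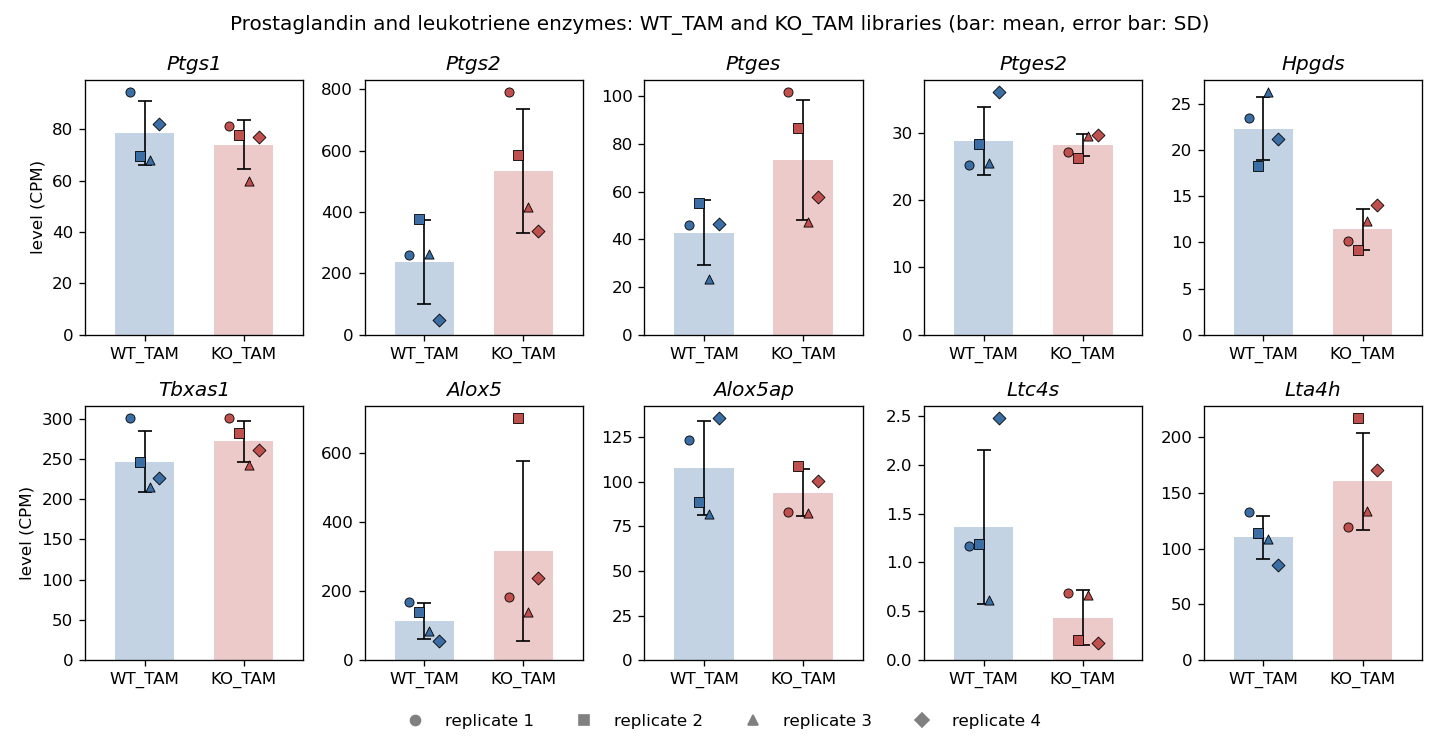
Levels (CPM, linear axes from 0) of the 10 enzyme genes in the 4 WT_TAM and 4 KO_TAM libraries; bars are means, error bars are SD and points are libraries, with a symbol per replicate number. Hpgds is lower in all KO_TAM libraries than in all WT_TAM libraries, and KO_TAM replicate 2 stands high in Alox5, at 703 CPM.

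Alox5 was at 169.9, 141, 85.5 and 55.2 CPM in WT_TAM and at 185, 703, 141 and 238 CPM in KO_TAM. KO_TAM replicate 2 was far above all others, and KO_TAM replicate 3 lay within the WT_TAM range. Its log2 fold change was 1.31 ± 0.50 (SE; limma adjusted p = 0.222). It was 0.83 without KO_TAM replicate 2 and 0.53 without that library and WT_TAM replicate 4. Eosinophils and neutrophils also express 5-lipoxygenase. All 6 eosinophil markers were detected, and they summed to 168, 123, 109 and 14.7 CPM in WT_TAM replicates 1 to 4 and to 254, 938, 246 and 367 CPM in KO_TAM replicates 1 to 4, mostly as Ccr3 and Siglecf. Epx, which encodes the eosinophil granule peroxidase, was at most 0.772 CPM in WT_TAM and 0.251 CPM in KO_TAM, and at 0 in 1 and 2 libraries. The 10 neutrophil markers summed to between 70.5 and 137 CPM in WT_TAM and to 199, 700.0, 183 and 165 CPM in KO_TAM, and Retnlg alone reached 683 CPM in KO_TAM replicate 2. Elane was at 0 in all WT_TAM libraries and in 2 KO_TAM libraries, and Camp was at most 0.305 CPM. The libraries with the highest and the lowest Alox5 were thus those with the highest and the lowest eosinophil sum, and the part of such cells in the Alox5 difference was not tested.

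Lta4h was at 132, 114, 109 and 85.6 CPM in WT_TAM and at 119.7, 217, 134 and 170.3 CPM in KO_TAM. KO_TAM replicates 2, 3 and 4 were above all WT_TAM libraries and replicate 1 was not. The fitted log2 fold change was 0.52 ± 0.23 (SE; limma adjusted p = 0.263), and without KO_TAM replicate 2 and WT_TAM replicate 4 it was 0.24. Alox5ap, in contrast, had the lower mean in KO_TAM, at 93.8 ± 13.1 against 108 ± 26.3 CPM (SD, n = 4 each). The 95% interval of its log2 fold change was from -0.64 to 0.29. Alox5ap per length exceeded Alox5 in 4 of 4 WT_TAM libraries and in 3 of 4 KO_TAM libraries, the exception being KO_TAM replicate 2 with a ratio of 0.513. Ltc4s had 16, 14, 8 and 16 reads in WT_TAM and 9, 2, 8 and 2 reads in KO_TAM. The groups overlapped, and the mean was 1.36 ± 0.789 CPM in WT_TAM and 0.434 ± 0.281 CPM in KO_TAM (SD, n = 4 each). A two-sided exact permutation test over these 8 libraries gave p = 0.0857, and the smallest p that 4 against 4 allows is 0.0286.

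**Figure D4:**
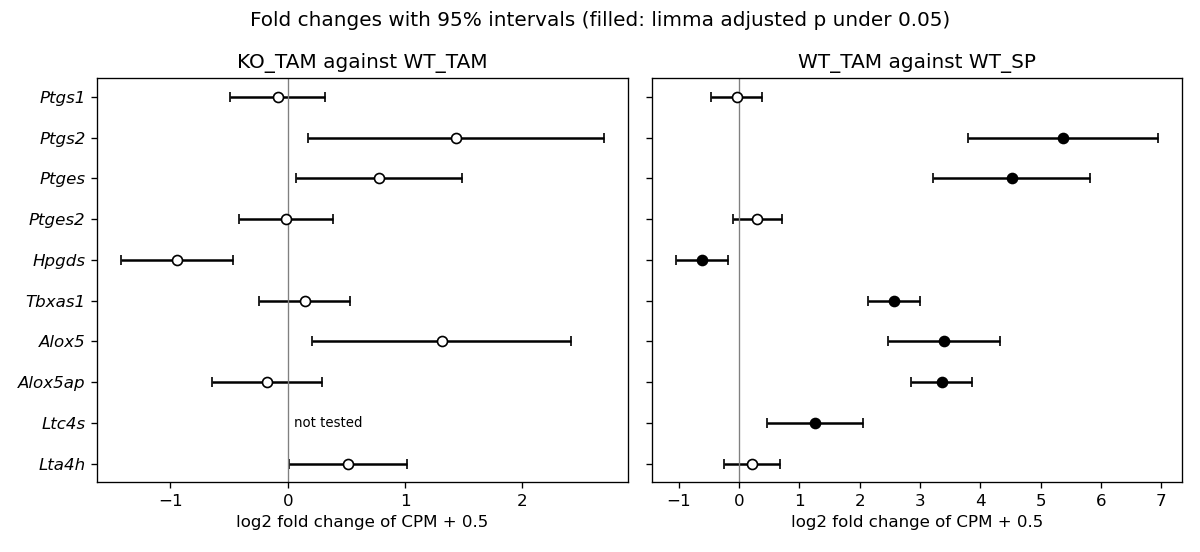
Log2 fold changes of CPM + 0.5 of the enzyme genes (points) with 95% intervals (bars) for KO_TAM against WT_TAM on the left and WT_TAM against WT_SP on the right; filled points have a limma adjusted p under 0.05. On the left no point is filled, and on the right 7 of 10 are, among them Ltc4s, which passed the filter only through WT_TAM.

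**Figure D5:**
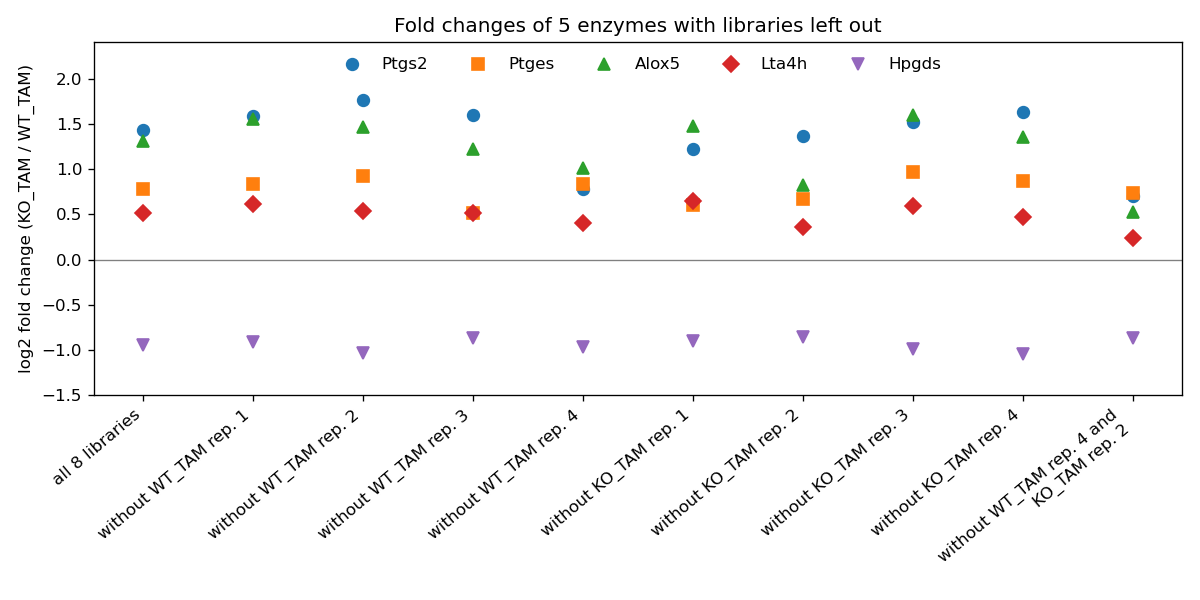
Log2 fold changes of 5 enzyme genes between KO_TAM and WT_TAM with all 8 libraries, with each library left out, and without WT_TAM replicate 4 and KO_TAM replicate 2. Hpgds stays between -1.05 and -0.85 over these fits, while Ptgs2 falls from 1.43 to 0.78 without WT_TAM replicate 4 and Alox5 from 1.31 to 0.83 without KO_TAM replicate 2.

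Of 12875 genes searched across the 8 genotype libraries, the profiles closest to that of Ptgs2 were those of Gm5345, Mdm2 and Cd274, with root mean square differences of 0.300, 0.323 and 0.337 in centred log2(CPM + 0.5). Ptgs2 itself varied by 1.14 around its mean on this scale. Cd274, which encodes the immune checkpoint ligand PD-L1, was at 60.8 CPM in WT_TAM replicate 4 and between 342 and 411 CPM in the other WT_TAM libraries, and like Ptgs2 it was lowest in that library. The profiles closest to that of Hpgds were those of Ppfia4, Cdc45 and H2-DMb1, at 0.128, 0.137 and 0.181, where Hpgds varied by 0.516. These genes were all lower in each KO_TAM library than in each WT_TAM library. The searches share the libraries with the comparisons above, so they describe the profiles and test nothing.

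The rest of the pathway was read from 57 listed genes in 6 lists. In the site comparison 44 of them were tested, and 14 were higher and 11 lower in WT_TAM at a limma adjusted p under 0.05. Of these, Akr1c18 (higher) and Alox12, Ephx2, Ggt1 and Ptger3 (lower) reached the filter's minimum level only in the group where they are high. Without such genes 13 of 39 were higher and 7 lower, beside the 21.1% and 21.0% of all genes. The 7 include Tbxa2r and Aloxe3, which reached it in too few WT_TAM libraries to pass the filter without WT_SP. None of these 25 changed sign with library totals alone. The genes named by size were Hpgd, Dpep2 and Alox15. Hpgd, which encodes the main enzyme that inactivates prostaglandins, was at 2.87, 2.74, 4.02 and 0 CPM in WT_TAM and at 230.4, 209 and 188 CPM in WT_SP, and its log2 fold change was -6.55 ± 0.68 (SE; limma adjusted p = 8.71e-05). Dpep2, a dipeptidase that turns leukotriene D into leukotriene E, was at 394 ± 68.0 CPM in WT_TAM (SD, n = 4) and 3.93 ± 0.114 CPM in WT_SP (SD, n = 3), and rose by 6.46 ± 0.19 (SE) on the log2 scale (limma adjusted p = 3.46e-07). Alox15 encodes 12/15-lipoxygenase, and it was at 534, 396, 290 and 37.1 CPM in WT_TAM and at 8.53, 6.02 and 3.81 CPM in WT_SP, or 5.11 ± 0.82 log2 units apart (SE; limma adjusted p = 0.00106).

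In the lists below, Akr1c18, Alox12, Ephx2, Ggt1 and Ptger3 are not counted, as they reached the filter's minimum only where they are high. Among all genes that reached it in both groups, 21.1% were called higher and 21% lower. Among genes for the release of arachidonic acid, 3 of 10 tested were higher (Pla2g4a, Pla2g7 and Anxa1) and 1 was lower (Pla2g2d). Pla2g4a encodes cytosolic phospholipase A2, which frees arachidonic acid, and had means of 88.1 ± 35.2 CPM in WT_TAM and 20.2 ± 1.57 CPM in WT_SP. Of the leukotriene and lipoxin receptors, 3 of 4 tested were higher and 0 lower. They were Ltb4r1, the leukotriene B4 receptor (240.1 against 12.8 CPM), Cysltr1, a receptor of cysteinyl leukotrienes (66.7 against 1.56 CPM), and Fpr2, which binds lipoxin and formyl peptides (18.7 against 3.38 CPM). Of the 6 prostanoid receptors tested, Ptger2 and Ptgir were higher and Tbxa2r was lower, with Ptger3 not counted. Tbxa2r, the thromboxane receptor, was at 0.498 ± 0.250 CPM in WT_TAM and 30.8 ± 4.26 CPM in WT_SP, in the opposite direction to Tbxas1. It passed the filter through WT_SP, where it is high, so the filter fixed its direction in part. Of the 6 other prostanoid synthases tested, Ptgis, the prostacyclin synthase (1.27 against 18.7 CPM), and Cbr1 were lower, with Akr1c18 not counted. Of the 11 other lipoxygenases and leukotriene enzymes tested, Alox15, Dpep2 and Mgst3 were higher and Aloxe3 and Mgst2 were lower. Aloxe3, at 0.700 ± 0.503 CPM in WT_TAM and 3.55 ± 0.783 CPM in WT_SP, has the same limit as Tbxa2r. Alox12, Ephx2 and Ggt1 are not counted. Of the genes for transport and breakdown, 2 of 7 were higher (Abcc1 and Ptgr1) and 1 was lower (Hpgd). Genes of these lists beyond the 3 named by size were named after their values were seen.

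In the genotype comparison 37 of the listed genes were tested and 0 passed the adjusted threshold. At an unadjusted p under 0.05, 6 had higher and 4 had lower values in KO_TAM, beside 8.67% and 9.72% of all genes. The 4 include Slco2a1, which reached the filter's minimum level only in WT_TAM libraries, where it is high. The largest statistics were those of Mgll, Slco2a1 and Alox15. Mgll, a lipase that yields arachidonic acid from its glycerol ester, was at 6.82, 5.43, 7.33 and 2.48 CPM in WT_TAM and at 12.2, 39.8, 14.3 and 16.5 CPM in KO_TAM. Its groups did not overlap, and its log2 fold change was 1.75 ± 0.42 (SE; limma adjusted p = 0.120). Slco2a1, the prostaglandin transporter, was between 1.09 and 1.91 CPM in WT_TAM and between 0 and 0.752 CPM in KO_TAM. The filter fixed its direction in part, so these values are given as a description. Alox15 was at 463, 343, 256 and 35.03 CPM in WT_TAM and at 822, 3114, 561 and 1008 CPM in KO_TAM, or 2.49 ± 0.77 log2 units apart (SE; limma adjusted p = 0.168). Its extremes, WT_TAM replicate 4 and KO_TAM replicate 2, were the libraries with the lowest and highest Alox5.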

How the data were processed

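RNA of 11 libraries was analysed. The submitters' processing notes name mm10 as the build, and HTSeq, SAMtools, HISAT, HISAT2, TopHat2 and DESeq2 as tools. No source used here gives their roles, versions or settings. The authors deposited 2 tables whose values are a score with no fixed range: they hold decimals and, for genes without a length, negative numbers. From the values, each cell was found to equal whole reads over gene length, library total and library factor, times a library factor that shifts from row to row. Whole reads were recovered on this basis, and they made up 99.95% to 99.99% of each implied library total. In the genotype table, 98 cells in 35 genes, 0 of them members, were not whole. The 49 in WT_TAM were replaced by the reads of the site table, and the 49 in KO_TAM were restored by taking off 1 of 54 round amounts, or by putting back a digit in 2 cells. The genotype fit therefore does not use these cells as deposited.

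Log2(CPM + 0.5) was fitted with limma 3.58.1 (trend, robust empirical Bayes) in R 4.3.3, on the 2 groups of each table, with Benjamini-Hochberg adjustment over all genes tested and a threshold of 0.05. Genes entered the test with 15 or more reads in total and with at least the CPM that 10 reads have in a library of median size, the latter in no fewer libraries than the smaller group holds. Fold changes on this scale understate changes of low genes. The floor of 3 reads corresponds to 0.211 to 0.492 CPM. Levels were divided by the length that the values imply. Because the deposited unit is not counts, a count model was not used as the main test. The recovered reads were also fitted with limma voom as an alternative. The fit was tested on simulated data. Coordinates come from the GENCODE annotation of GRCm38 and promoters from RefSeq (GRCm38.p6). The members and lists were chosen with earlier results of these data known. By rule, all 10 members were described, with the 3 listed pathway genes of largest fold change among those past the threshold, or of largest statistic where none was, and the 3 genes closest in profile to Ptgs2 and to Hpgds. Alternatives were another pseudocount, no filter, library totals, limma voom, array weights, a replicate block, libraries left out, cells as deposited and all libraries in 1 fit.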

Additional observations from a re-analysis of the deposited data

How the results depend on the processing

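Ptgs2, Ptges, Tbxas1, Alox5 and Alox5ap stayed higher in WT_TAM than in WT_SP at a limma adjusted p under 0.05 in all 14 alternatives. Between genotypes, the count of genes called in KO_TAM was 0 higher and 0 lower, and became 20 higher and 78 lower without the filter, 140 and 247 with array weights, 21 and 44 without WT_TAM replicate 4 and KO_TAM replicate 2, and 21 and 59 with all 11 libraries in 1 fit. With the cells as deposited it was 4 higher. It was 0 in each direction with any 1 library left out. Between sites, 3287 genes were higher and 3364 lower in WT_TAM, or 2135 and 5629 with library totals alone, where the median log2 fold change of all genes moved from -0.07 to -0.52 and the share of calls that were higher from 49.4% to 27.5%. With 1 library left out, 2497 to 4478 genes were higher and 2480 to 4655 lower.

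Several small differences changed sign. For Ptges2 between genotypes the log2 fold change was 0.053 with library totals, 0.0031 with limma voom, 0.11 with array weights and 0.13 without WT_TAM replicate 4 and KO_TAM replicate 2, and between -0.075 and 0.095 with 1 library left out. For Ptgs1 with 1 library left out it was between -0.15 and 0.014 in the genotype comparison and between -0.15 and 0.056 in the site comparison. With array weights Ptgs1 was 0.0048 between sites. With library totals Ptges2 was -0.16 and Lta4h -0.26 between sites. The cause was not tested.

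The labels give groups the same replicate numbers without saying that a number marks a shared animal or day, and same-numbered libraries did not all deviate together: the correlations across genes were 0.046, 0.115, -0.162 and 0.198 between genotypes and -0.002, -0.094 and 0.098 between sites. With the replicate block, 0 genes were higher and 0 lower in KO_TAM, with 2678 at an unadjusted p under 0.05, and 4532 were higher and 4585 lower in WT_TAM than in WT_SP. Lta4h then had a limma adjusted p of 0.0157 between sites, and 0.0134 with array weights. Low reads limit Ltc4s most, and Ptges in WT_SP.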
